A study of Mus musculus with 6 samples.

Results

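Slc4a1, Rhag, Rhd, Epb42, Ank1, Kel, Ermap and Cldn13 encode proteins of the red cell membrane or of its blood group antigens. They were chosen by name, and each was represented by the 1 probe set whose annotation gives that symbol and no other, 8 of the 34760 probe sets on the array. Expression was measured on Affymetrix arrays in cells labelled CD4+ T cells, isolated from C57BL/6 mice of 6 weeks. Cells of mice deficient in cystathionine beta-synthase (CBS-KO, 3 arrays), which makes cystathionine from homocysteine and can form hydrogen sulfide, were compared with cells of wild-type mice (WT, 3 arrays). The sources used here do not state how the cells were isolated or how pure they were, how the CBS allele was made, the sex of the animals, or whether animals were pooled. The labels call the 3 arrays of a group biological replicates. They do not say that each came from its own animal, so p-values measure the spread between these arrays.

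The membrane of a red cell is held in shape by a spectrin net that is tied to the lipid layer at a few protein complexes. At the ankyrin complex, band 3, the product of Slc4a1, exchanges chloride for bicarbonate and binds ankyrin (Ank1) and protein 4.2 (Epb42), and the Rh proteins are attached to it. In humans the same surface carries the blood group antigens, among them those on the Rh proteins, on Kell (Kel) and on the Scianna protein (Ermap). Erythroblasts, the nucleated precursors of red cells, make these proteins as they mature.

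Promoter sequences are shown because the members moved together in these arrays and because the erythroid factor GATA1 is known to bind a short GATA element. RefSeq promoter windows (GRCm38.p6) were at hand for 5 of the 8 genes, and the 250 bases before the annotated start were searched on both strands for NGATAN with A or T as its first letter and A or G as its last. All 5 windows held at least 1 match, against 26.5% of 32851 promoter windows of the same length. The match lay within 70 bases of the start in Rhag, Rhd, Kel and Ermap, for which the 100 bases before the start are printed, and farther upstream in Epb42, for which the full window is printed. Capitals mark the matches, which are printed as the reverse complement where they lie on the other strand. The regions are chr17:40811049-40811148 (plus strand) for Rhag, chr4:134864436-134864535 (plus) for Rhd, chr6:41704326-41704425 (minus) for Kel, chr4:119189996-119190095 (minus) for Ermap and chr2:121036878-121037127 (minus) for Epb42.
Rhag: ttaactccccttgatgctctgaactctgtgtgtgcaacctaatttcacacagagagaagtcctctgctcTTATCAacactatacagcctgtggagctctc
Rhd: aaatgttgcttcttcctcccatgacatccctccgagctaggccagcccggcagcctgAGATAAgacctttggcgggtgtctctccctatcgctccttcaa
Kel: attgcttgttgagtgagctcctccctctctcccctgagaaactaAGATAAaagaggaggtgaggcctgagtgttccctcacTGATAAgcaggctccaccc
Ermap: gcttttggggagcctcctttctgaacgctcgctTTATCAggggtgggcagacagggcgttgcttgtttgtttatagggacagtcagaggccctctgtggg
Epb42: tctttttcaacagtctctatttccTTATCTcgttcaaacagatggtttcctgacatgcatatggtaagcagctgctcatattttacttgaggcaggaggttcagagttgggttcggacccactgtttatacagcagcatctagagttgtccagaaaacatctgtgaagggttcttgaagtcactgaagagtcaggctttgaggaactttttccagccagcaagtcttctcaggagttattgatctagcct

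A match describes letters in the window, not a bound site. The matches of Rhd and Kel ran on the gene strand, and those of Rhag, Ermap and Epb42 on the other strand. Rhag had its match 31 to 26 bases before the start, Rhd 43 to 38 bases and Ermap 67 to 62 bases. Kel had 2 matches, at 56 to 51 and 19 to 14 bases before the start, and Epb42 had 1 at 226 to 221 bases. The motif CCNCNCCC, which resembles the CACC element bound by the erythroid factor KLF1, was found in 0 of the 5 windows, against 45.9% of all windows, which says only that these letters are not in these windows.

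**Figure D1:**
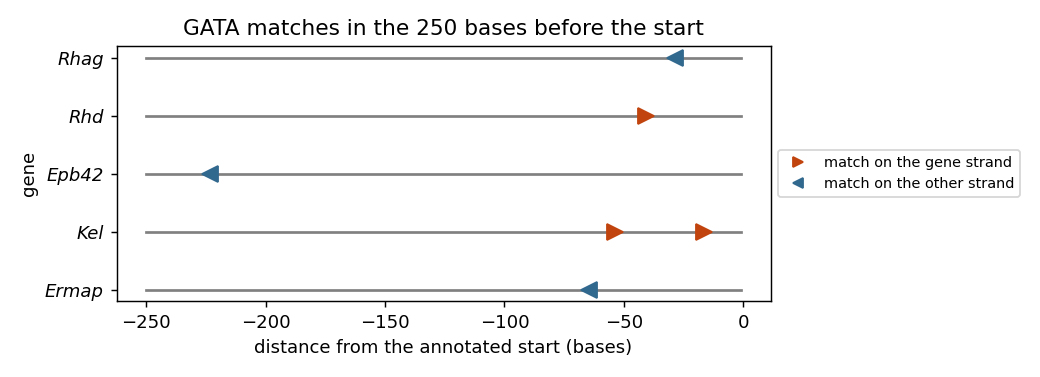
Position of GATA matches (NGATAN, first letter A or T, last letter A or G) in the 250 bases before the annotated start of 5 genes, with the distance from the start in bases on the x axis and 1 gene per line. Triangles pointing right are matches on the gene strand and triangles pointing left are on the other strand; 4 of the 5 genes have a match within 70 bases of the start, and Epb42 has its match at 226 to 221 bases.

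The array medians lay between 149.4 and 170.9 intensity units, so no shift was applied between arrays. Cbs, the targeted gene, had log2 levels of 7.25, 7.63 and 7.35 in CBS-KO 1 to 3, against 7.37, 7.48 and 7.19 in WT 1 to 3, so its probe set did not separate the groups. The sources used here do not state which part of the gene that probe set covers, so it checks no label. Xist, the RNA of the inactive X chromosome, had 6.02, 6.18 and 12.23 in CBS-KO 1 to 3, against 12.68, 12.61 and 12.66 in WT, and the Y-linked Eif2s3y had 9.41, 9.19 and 4.87 in CBS-KO 1 to 3, against 4.87 to 4.90 in WT (Kdm5d and Uty, also Y-linked, were likewise high on CBS-KO 1 and 2 alone). Sex and genotype thus overlap in part and cannot be fully told apart. The median SD of a probe set was 0.21 log2 units among CBS-KO arrays and 0.11 among WT arrays.

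All 8 genes were higher in CBS-KO cells, by 2.93 to 4.47 log2 units, and in each of them every CBS-KO array lay above every WT array. Values are log2(intensity + 16), which understates a change at low levels, and a difference of 3 on this scale is 8-fold in intensity + 16. The gap between the lowest CBS-KO array and the highest WT array was 1.76 log2 units for the closest gene, Ermap, and 3.004 for the widest, Slc4a1. Each of the 8 passed an adjusted p of 0.05 in limma (two-sided, Benjamini and Hochberg over all 20856 probe sets above the 40th percentile of mean level), and the adjusted p ran from 0.00525 to 0.0148. Of all tested probe sets 9.57% passed in either direction, 5.09% passed as higher in CBS-KO and 4.47% as lower. In 15% of tested probe sets every CBS-KO array lay above every WT array. The 8 genes were chosen with results of these data known, so their count was fixed in part by that choice.

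**Figure D2:**
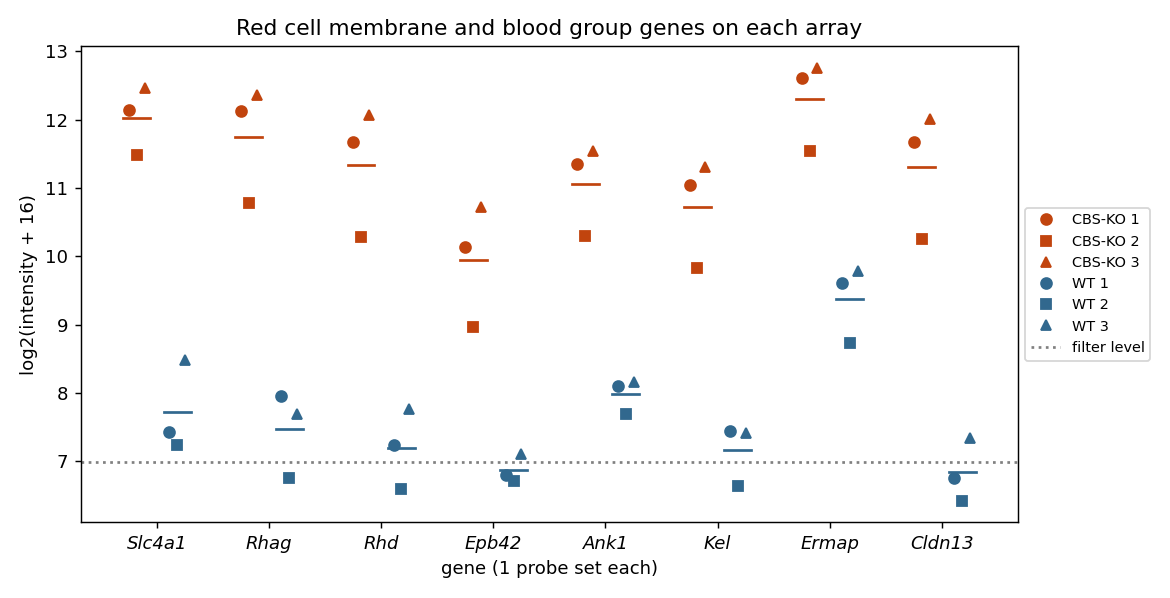
Log2(intensity + 16) of the 8 genes on each array (x axis, gene; y axis, log2 units; CBS-KO arrays in orange, WT arrays in blue, one marker shape per array number, horizontal bars the group means, dotted line the filter level of 6.99). Every CBS-KO point lies above every WT point of its gene, CBS-KO 3 is the highest and CBS-KO 2 the lowest CBS-KO array in each gene, and WT 2 is the lowest WT array in each.

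Slc4a1, the anion exchanger that anchors the ankyrin complex, had log2 levels of 12.14, 11.48 and 12.46 in CBS-KO 1 to 3, against 7.43, 7.24 and 8.48 in WT 1 to 3. As intensities these were 4501, 2849 and 5605 in CBS-KO cells, against 156.3, 135.1 and 341.1 in WT cells. The difference was 4.31 (SE 0.38, 95% confidence interval 3.40 to 5.22, limma adjusted p = 0.00525, n = 3 per group), and WT 3 stood highest among the WT arrays.

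Ank1, ankyrin of the red cell, which ties band 3 to beta spectrin, had levels of 11.35, 10.29 and 11.54 in CBS-KO 1 to 3, against 8.10, 7.69 and 8.15 in WT 1 to 3. Its difference was 3.08 (SE 0.34, 95% confidence interval 2.28 to 3.88, limma adjusted p = 0.00882). The WT arrays lay within 0.46 log2 units of each other, and the CBS-KO arrays within 1.25.

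Epb42, protein 4.2, which steadies the contact of band 3 with ankyrin, had levels of 10.14, 8.96 and 10.72 in CBS-KO 1 to 3, against 6.81, 6.72 and 7.11 in WT 1 to 3. The difference was 3.06 (SE 0.42, 95% confidence interval 2.05 to 4.07, limma adjusted p = 0.0148), the least significant of the 8. Its WT mean of 6.88 was at percentile 37.2 of all probe sets, below the level of 6.99 that the mean of all 6 arrays had to exceed for testing. Epb42 was thus tested through its CBS-KO arrays alone, as was Cldn13, and with no filter on low values all 8 genes passed as well.

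The Rh proteins came next in the same complex. Rhag, the Rh-associated glycoprotein, a channel-like ammonia and gas transporter that Rh antigens need to reach the surface, had levels of 12.12, 10.78 and 12.35 in CBS-KO 1 to 3, against 7.96, 6.75 and 7.69 in WT 1 to 3 (difference 4.28, SE 0.48, 95% confidence interval 3.14 to 5.43, limma adjusted p = 0.00937). Rhd, which encodes the Rh antigen protein in the mouse, had levels of 11.67, 10.28 and 12.07 in CBS-KO 1 to 3, against 7.23, 6.60 and 7.76 in WT 1 to 3 (difference 4.14, SE 0.50, 95% confidence interval 2.94 to 5.34, limma adjusted p = 0.0113). The pair moved by nearly the same amount, with wide overlap of the intervals. Rhag lies on chromosome 17, as does Cbs, and the 8 genes are spread over 7 chromosomes.

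The non-erythroid Rh relatives had small differences, at levels near the filter. Rhbg and Rhcg, ammonia transporters of epithelia (named after their values were seen), had differences of -0.03 (95% confidence interval -0.25 to 0.19, limma adjusted p = 0.876) and 0.01 (-0.19 to 0.21, limma adjusted p = 0.969). Their upper bounds lay below the lower bounds of 3.14 for Rhag and 2.94 for Rhd, and the difference between the genes was not itself tested. Rhbg averaged 7.12 in CBS-KO and 7.14 in WT cells, and Rhcg 7.17 and 7.16, near the filter level of 6.99. Whether either stood above the array's background is not known, so no contrast with Rhag and Rhd is read from them.

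Among the antigen carriers outside the ankyrin complex, Kel, a surface endopeptidase that carries the Kell antigens, had levels of 11.04, 9.82 and 11.31 in CBS-KO 1 to 3, against 7.45, 6.64 and 7.42 in WT 1 to 3. Its difference was 3.55 (SE 0.42, 95% confidence interval 2.55 to 4.56, limma adjusted p = 0.0107). Ermap, the erythroblast membrane-associated protein that carries the Scianna antigens in humans, had 12.61, 11.55 and 12.76 in CBS-KO 1 to 3, against 9.61, 8.73 and 9.79 in WT 1 to 3. The difference of 2.93 (SE 0.40, 95% confidence interval 1.98 to 3.88, limma adjusted p = 0.0142) was the smallest of the 8, and its WT mean was at percentile 74.4 of all probe sets, the highest of the 8.

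Cldn13, a claudin of the mouse that is regulated in stress erythropoiesis, had levels of 11.67, 10.26 and 12.00 in CBS-KO 1 to 3, against 6.75, 6.43 and 7.34 in WT 1 to 3. The difference of 4.47 (SE 0.47, 95% confidence interval 3.34 to 5.60, limma adjusted p = 0.00858) was the largest of the 8 as fitted. Its WT mean of 6.84, at percentile 36.4 of all probe sets, lay below the filter level. Whether it stood above the array's background is not known, so the size and rank of this difference, as of that of Epb42, depend on that floor. The WT means of Kel (7.17) and Rhd (7.20) lay just above the filter level. WT 2 lay below that level in Rhag (6.75), Rhd (6.60) and Kel (6.64), so the same limit may hold for these genes. In order of fitted difference the genes ran Cldn13, Slc4a1, Rhag, Rhd, Kel, Ank1, Epb42 and Ermap, and each neighbouring pair had overlapping 95% confidence intervals. A two-sided exact permutation test of any 1 gene gives p = 0.1, the smallest p that 3 against 3 arrays allow.

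The arrays within a group followed the same order in the 8 genes. CBS-KO 3 was highest, CBS-KO 1 next and CBS-KO 2 lowest in 8 of 8, an order shown by 33.3% of all tested probe sets and by 55.6% of the 1062 that were higher in CBS-KO. CBS-KO 2 lay below CBS-KO 1 by 0.66 log2 units in Slc4a1 and by 1.06 to 1.41 in the other 7, whereas CBS-KO 3 and CBS-KO 1 lay 0.15 to 0.59 apart. WT 2 was the lowest WT array in 8 of 8, against 34.9% of all tested probe sets. CBS-KO 3, which had Xist signal, and CBS-KO 1, which had Y-linked signal, were the closer pair among the CBS-KO arrays. A part of sex in this order was not tested. With Xist signal as a model term, each estimate is CBS-KO 3 minus the WT mean. The 8 differences then ran from 3.38 to 5.16. CBS-KO 3 was the highest CBS-KO array in all 8. This fit rests on that 1 array, so it cannot say whether the differences hold apart from sex.

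The adjusted call, though not the direction, was lost for every gene but Slc4a1 in some fit with 1 array left out. In each such fit all 8 genes had an unadjusted limma p under 0.05. Without WT 2, Slc4a1 alone kept an adjusted p below 0.05 (0.0403, against 0.0542 to 0.0835 for the other 7), and without WT 1, Slc4a1 (0.04) and Rhag (0.0496) did. Without CBS-KO 1, Slc4a1 (0.034), Cldn13 (0.0445) and Ank1 (0.0482) passed. Without CBS-KO 2, CBS-KO 3 or WT 3 all 8 passed, and over these 6 fits the differences themselves ran from 2.61 to 4.996. In the fits without WT 1, WT 2 and CBS-KO 1 the whole table also gave fewer calls, with 0.446%, 0.345% and 0.791% of tested probe sets passing. Without CBS-KO 2, CBS-KO 3 and WT 3 the shares were 30.8%, 6.51% and 3.21%, against 9.57% with all arrays.

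**Figure D3:**
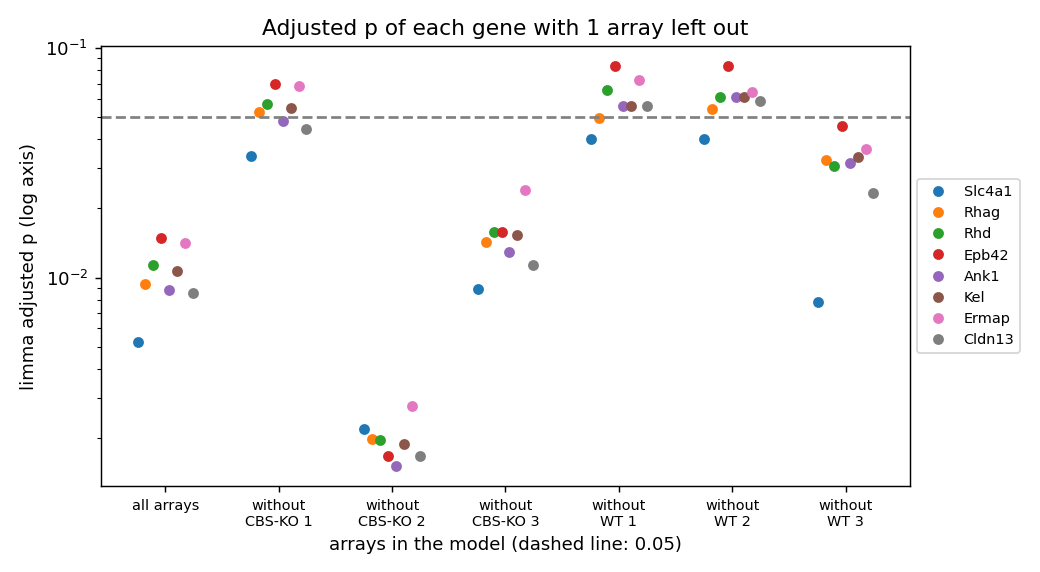
Limma adjusted p of each of the 8 genes (y axis, log scale; one colour per gene) with all arrays and with 1 array left out (x axis), the dashed line marking 0.05. Slc4a1 lies below the line in every fit, and most of the other genes lie above it without WT 1, WT 2 or CBS-KO 1.

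Other genes of the red cell surface were taken from lists of the membrane skeleton, of blood group carriers and of red cell transporters and channels. Of 40 tested genes in these lists, 13 were higher and 1 was lower, 35% in all against the 9.57% of the whole table. Their median difference was 0.72 against -0.05 over all tested probe sets. List genes came only from probe sets that name 1 gene. With the test restricted to such probe sets, 52.5% of the 40 passed, against 16.3% of 13862. Without CBS-KO 1, WT 1 or WT 2, limma called 0 of the 40, with 24, 25 and 26 at an unadjusted p under 0.05, without WT 3 it called 6, and without CBS-KO 2 it called 30.

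In the membrane skeleton list 5 of 9 tested genes rose and 1 fell. Sptb, beta spectrin, had 10.38, 9.38 and 10.74 in CBS-KO 1 to 3, against 7.64, 7.62 and 7.78 in WT 1 to 3 (difference 2.48, SE 0.33, limma adjusted p = 0.0139). Tspan33, a tetraspanin of erythroblasts, rose by 3.31 (SE 0.43), Stom, the membrane protein stomatin, by 3.03 (SE 0.38), and Dmtn, the actin bundler dematin, by 1.31 (SE 0.21). The adducins, which cap actin at the spectrin junctions, did not move as one. Add2, the beta form of red cells, rose by 2.61 (SE 0.48, limma adjusted p = 0.0269), Add3, the gamma form of many tissues, fell by 0.87 (difference -0.87, SE 0.17, limma adjusted p = 0.0305), and Add1, the alpha form (named after its value was seen), had a difference of -0.15 (SE 0.08, limma adjusted p = 0.25).

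Blood group carriers were mixed, with 6 of 21 tested genes higher and 0 lower in limma (13 and 2 at an unadjusted p under 0.05). Among the 15 tested genes that did not pass as higher or lower, every CBS-KO array lay above every WT array in 7. With the called genes this held for 13 of 22 measured genes, against 15% of all tested probe sets, called or not. In Aqp3 and Cd55 (named after their values were seen) every CBS-KO array lay below every WT array, with differences of -0.40 and -0.33. Aqp1, the water channel that carries the Colton antigens, had 12.33, 11.21 and 12.71 in CBS-KO 1 to 3, against 8.65, 7.72 and 9.31 in WT 1 to 3 (difference 3.53, SE 0.51, limma adjusted p = 0.0157). Xk, the membrane partner of Kell, rose by 2.21 (SE 0.41), the porphyrin-linked transporter Abcb6 by 1.88 (SE 0.43), the nucleoside transporter Slc29a1 by 1.30 (SE 0.25), the Vel antigen gene Smim1 by 1.16 (SE 0.25) and basigin, Bsg, by 0.58 (SE 0.12). The complement shield gene Cd59a (named after its value was seen) had the largest difference that did not pass, 2.12 (SE 0.56, limma adjusted p = 0.0595), with 9.36, 8.45 and 10.70 in CBS-KO 1 to 3, against 7.46, 6.85 and 7.84 in WT 1 to 3. Of 10 transporters and channels, Slc43a1, an amino acid carrier (3.01, SE 0.35), and Mfsd2b, the sphingosine-1-phosphate exporter of red cells and platelets (2.18, SE 0.38), rose and 0 fell in limma (6 and 1 at an unadjusted p under 0.05), and the other 8 had differences of -0.88 to 1.22.

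**Figure D4:**
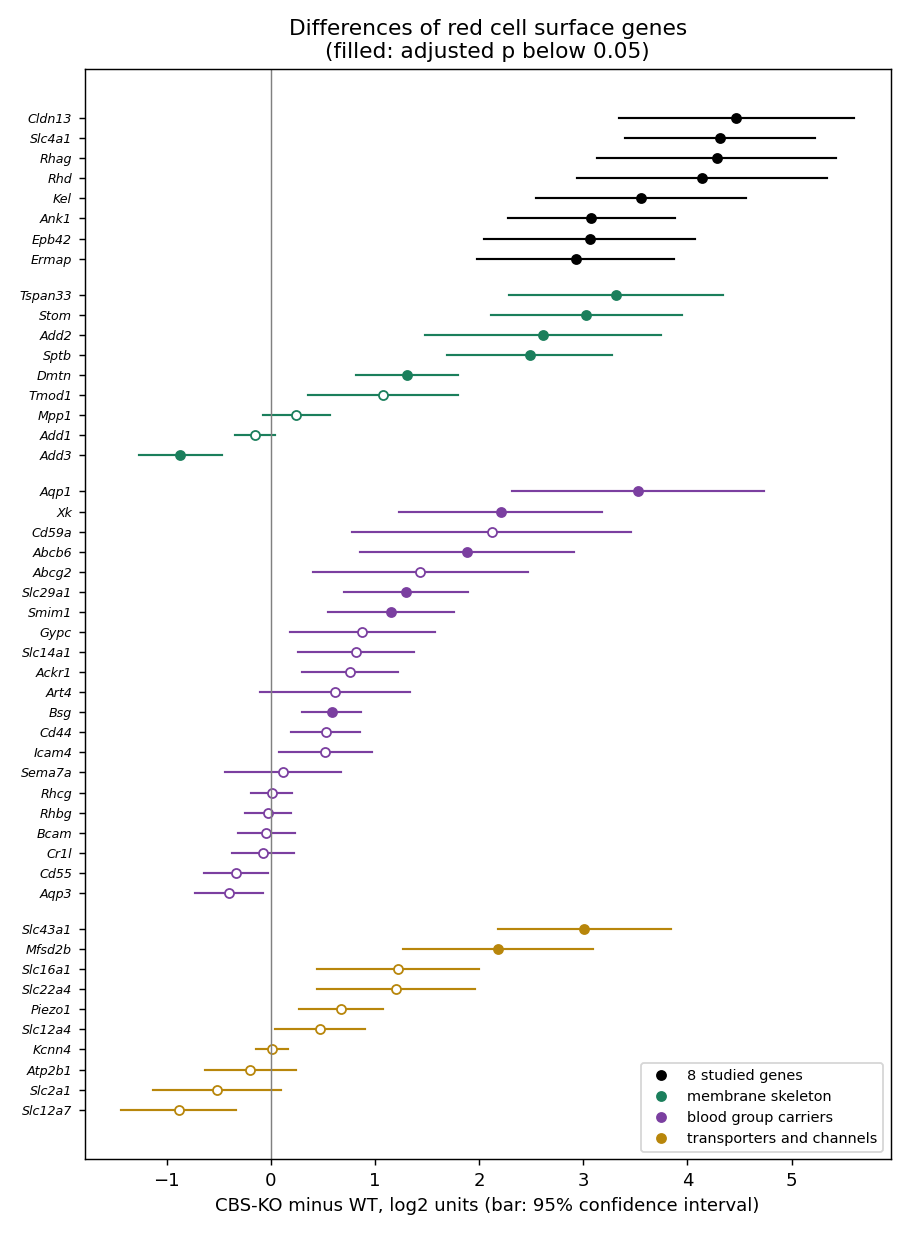
CBS-KO minus WT in log2 units (x axis) for the 8 genes and the tested genes of the membrane skeleton, blood group and transporter lists (y axis, 1 gene per line), with 95% confidence intervals as bars and filled points for an adjusted p below 0.05. The 8 genes lie between 2.93 and 4.47, Add3 alone is called lower, and Rhbg and Rhcg lie at -0.03 and 0.01.

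A list of red cell precursor genes, which holds enzymes, transcription factors and some surface receptors, was mostly higher too. Of 18 tested erythroid precursor genes, 14 were higher and 0 lower in limma (15 and 0 at an unadjusted p under 0.05, median 1.93). Over all tested probe sets 5.09% were higher and 4.47% lower. Among the 14 were Alas2, the first enzyme of erythroid haem synthesis (3.002, SE 0.18), and the transcription factor Gfi1b (2.84, SE 0.34). The erythropoietin receptor Epor (2.82, SE 0.38) and carbonic anhydrase Car2 (2.98, SE 0.41) were others. Ppox, Bpgm, Bnip3l and Xpo7 (named after their values were seen) did not pass, with differences of 0.44, 0.17, -0.11 and -0.19. Of the 14 called genes, 13 had the array order CBS-KO 3, 1, 2, against 55.6% of all probe sets called higher. The exception was Alas2, with 10.04, 10.18 and 10.43 in CBS-KO 1 to 3, against 6.92, 7.41 and 7.32 in WT 1 to 3. Embryonic globin genes (named after their values were seen) differed little between the groups. Hba-x averaged 7.43 in CBS-KO and 7.31 in WT cells, at percentiles 49.4 and 46.6 of all probe sets. Hbb-bh1 (5.51 and 5.44) and Hbb-y (5.96 and 6.01) lay below the filter level in both groups.

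Adult globin signal was higher in CBS-KO cells too. These genes share probe sets, so no single gene can be named, and 2 probe sets list only alpha and 2 only beta globin genes. All 4 were higher, by 2.19 to 2.93 log2 units (limma adjusted p = 0.0105 to 0.0246). Their average, taken relative to the WT mean, was 2.57, 2.79 and 2.73 in CBS-KO 1 to 3, against -0.80, -0.0022 and 0.80 in WT 1 to 3. For 3 of the 4 the CBS-KO mean was between percentiles 99.75 and 99.97 of all probe sets, near the top of the scale of these arrays, so no order of the CBS-KO arrays is read from them. The other probe set, for beta globin genes, had 8.99, 9.57 and 9.40 in CBS-KO 1 to 3, against 5.96, 5.92 and 7.72 in WT 1 to 3, with CBS-KO 1 the lowest CBS-KO array.

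Markers of other cells moved in the same arrays. The counts below stand against 5.09% of all tested probe sets called higher and 4.47% called lower. The median difference over all tested probe sets was -0.05. Fewer cells of a type and less RNA per cell cannot be told apart in these samples. All 16 neutrophil genes had positive differences and 15 passed (median 3.36; smallest p in Lcn2, S100a9, S100a8 and Ly6g, with differences of 5.33, 3.86, 3.95 and 2.999), with a summed intensity of 33070 to 41950 in CBS-KO arrays, against 1749 to 3712 in WT. Of 14 monocyte and macrophage genes, 13 were tested (median 2.37) and 12 passed as higher. The smallest p were in Fcgr3, Lyz2, Spi1 and Vcam1, with differences of 1.53, 3.67, 2.42 and 2.57. Among the 12, Cd14 (named after its value was seen) had a WT mean of 6.57, below the filter level. The list had sums of 18120 to 24990 in CBS-KO arrays, against 2858 to 5176 in WT. Of 12 CD4+ T cell genes, 12 had negative differences and 4 passed as lower (Cd3d, Cd3g, Cd2 and Cd28), with sums of 35510 to 56670 in CBS-KO arrays, against 67640 to 72880 in WT, and Cd4 itself (named after its value was seen) averaged 12.77 in CBS-KO and 13.34 in WT cells. Of 6 platelet genes, 1 (Gp9) passed as higher, and of 6 B cell genes 0 passed in limma, and 0 at an unadjusted p under 0.05. The 8 genes themselves summed to 12610 to 33290 in CBS-KO arrays, against 1151 to 2294 in WT.

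The lists differed in how their CBS-KO arrays lay. Relative to the WT mean the 8 genes averaged 4.01, 2.85 and 4.32 in CBS-KO 1 to 3, against 0.09, -0.48 and 0.39 in WT 1 to 3, and the neutrophil list 3.58, 3.45 and 3.16 in CBS-KO 1 to 3, against -0.12, -0.31 and 0.43 in WT. The monocyte and macrophage list averaged 1.67, 2.30 and 1.87 in CBS-KO 1 to 3, highest where the 8 genes were lowest, and the CD4+ T cell list -0.67, -0.35 and -1.07, nearest to WT in CBS-KO 2. The erythroid precursor list (1.90, 1.21 and 2.13 in CBS-KO 1 to 3) and the small platelet list (0.55, 0.13 and 0.59) had the order of the 8 genes. The neutrophil mean joined genes that ran in different ways. CBS-KO 2 was the lowest CBS-KO array in 7 of 15 called neutrophil genes, among them Ltf and 6 others (Mpo, Ngp, Camp, Elane, Prtn3 and Ctsg, named after their values were seen), as it was in the 8 genes, and Cxcr2, Csf3r and Retnlg (named likewise) were highest there. It was the lowest in 0 of 12 called monocyte and macrophage genes, and in 64.7% of all probe sets called higher. B cell genes averaged -0.46, 0.91 and -0.98 in CBS-KO 1 to 3, with summed intensities of 5381, 13940 and 3832, against 6372 to 9686 in WT, so the array with the lowest levels of the 8 genes had the highest B cell signal. The part of other cells in the differences of the 8 genes was not tested.

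**Figure D5:**
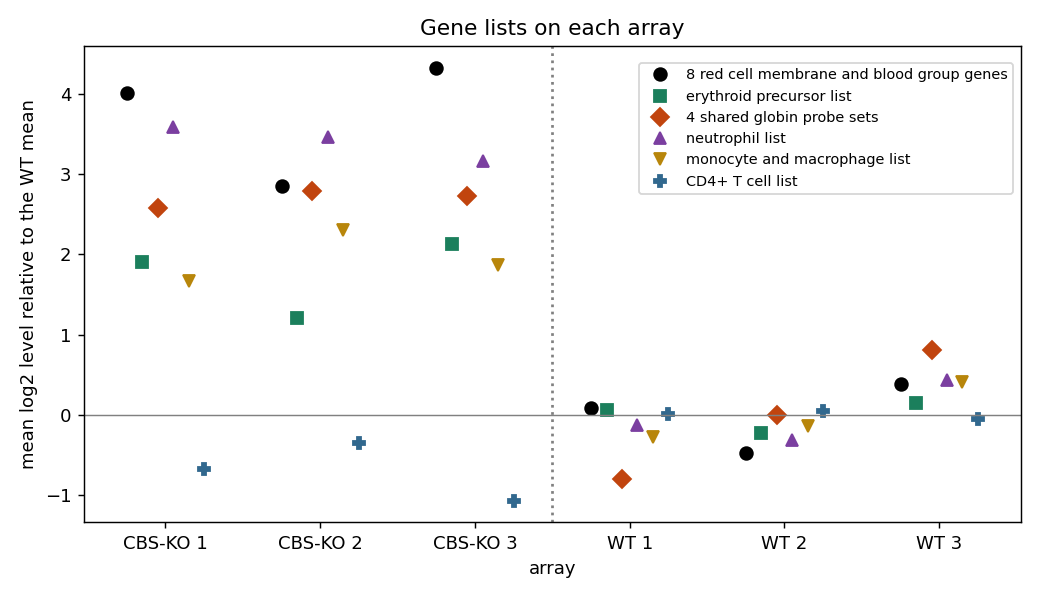
Mean log2 level relative to the WT mean (y axis) on each array (x axis, CBS-KO arrays left of WT arrays) for the 8 genes, the erythroid precursor list, 4 shared globin probe sets and the neutrophil, monocyte and macrophage, and CD4+ T cell lists. The 8 genes are lowest among CBS-KO arrays in CBS-KO 2 (2.85), where the monocyte and macrophage list is highest (2.30) and the CD4+ T cell list is nearest to 0 (-0.35).

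The genes whose array profile lay nearest to the mean of the 8 were found by the root mean square difference over the 6 arrays, each centred on its WT mean, among 13854 tested probe sets that name 1 other gene. In order these were Nxpe2 (0.157 log2 units), Hemgn, a nuclear protein of blood progenitors (0.238), Aqp1 (0.255), the amino acid carrier Slc38a5 (0.255) and Ltf, the neutrophil granule protein lactoferrin (0.263). Ltf had 11.49, 9.96 and 11.03 in CBS-KO 1 to 3, with CBS-KO 1 rather than CBS-KO 3 highest. Another neutrophil gene, Ctsg, was the 9th nearest (0.331, named after its value was seen).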

How the data were processed

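The table the authors deposited holds linear intensities, 1 for each probe set on each array; how they corrected background, normalized and summarised probes is not stated in any label or header. The labels' protocols say that biotinylated cRNA was made from 6 ug of total RNA. The scale was read from the values, and any centring is unknown. Symbols came from GEO's platform annotation: 1 gene for 21640 probe sets, several for 1321, none for 11799; the identifiers of all 8 members matched the RefSeq gene table (GRCm38.p6). Values were log2(intensity + 16); probe sets with a mean over all 6 arrays above the 40th percentile (20856) were fitted with limma 3.58.1 (R 4.3.3; trended eBayes, two-sided), with p adjusted by Benjamini and Hochberg over all of them. List genes were taken by their brightest probe set naming 1 gene. The fit was also run on simulated data with independent arrays and the same spread in both groups. The real CBS-KO arrays spread more than the WT arrays (median SD 0.21 against 0.11), so that run does not vouch for the calls here. Figures used matplotlib 3.10.9 in Python 3.11.15. Named genes were the 8 members, called genes of the skeleton and blood group lists, up to 4 called genes of smallest p in each other list, the sex-linked genes, Cbs, and the 5 nearest profiles; exceptions are marked where they occur. Members, lists and tests were chosen with earlier results of these data known. Precision is limited by the 3 arrays in a group. Alternatives covered normalization, filter, offset, variance model, test, replicate block, sex, the features tested, and each array left out.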

Additional observations from a re-analysis of the deposited data

How the results depend on the processing

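Over 152 values of the 8 genes under 19 alternatives, 152 kept their direction, 0 reversed and 26 lost the call: 8 in the plain Welch test and 18 in fits without WT 1, WT 2 or CBS-KO 1. Calls over the whole table numbered 1995, and 1126 with no filter, 13534 with array weights (a fit that did not converge), 4976 with the sex term, and 72 to 6433 with 1 array left out. In the plain Welch test 0 probe sets passed, with 3720 at an unadjusted p under 0.05, and of the 8 genes 0 passed, with all 8 at an unadjusted p under 0.05, against 8 of 8 in limma. With 1 array left out, 1 to 8 of the 8 passed. Of the membrane, blood group and transport genes, 14 passed, and 8 with no filter, 35 with array weights, 0 in the plain Welch test (16 at an unadjusted p under 0.05), 27 with the sex term and 0 to 30 with 1 array left out. The cause of these changes was not tested. Same-numbered arrays of the groups deviated together with correlations of 0.06, 0.16 and 0.11, and every CBS-KO array correlated best with the WT array of its own number, a hint from the data and not from the design; with the replicate block 2093 probe sets, 8 of the 8 genes and 16 list genes passed. Restricting the test to probe sets that name 1 gene gave 2255, 8 and 21. No depth or background value is given, so levels near the filter of 6.99 may be set by background.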
